A study of Mus musculus with 21 samples.

Results

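The CD62L effect in common myeloid progenitors (CMPs) was set against the CD62L effect in granulocyte-monocyte progenitors (GMPs) of mouse bone marrow, gene by gene, by RNA sequencing of sorted cells. The CD62L effect is the log2 fold change of CD62L-high over CD62L-low CMPs, and of CD62L-high over CD62L-neg GMPs. The comparison is the first effect minus the second, so that a positive difference means a higher effect in CMPs. It used 12 of the 21 libraries of the series, 3 of each of the 4 groups, and 14168 genes with enough reads to test. Genes were then sorted by whether the 2 effects had opposite signs or whether an effect was found in 1 compartment only.

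CD62L is an adhesion receptor that lets leukocytes roll on vessel walls. CMPs can give rise to red cells, megakaryocytes, granulocytes and monocytes. GMPs stand later on the granulocyte and monocyte branch, where neutrophil precursors fill their primary granules with proteases and peroxidase made in the endoplasmic reticulum (ER), and where transcription factors such as GFI1, C/EBP proteins and PU.1 direct the choice between neutrophils, monocytes, eosinophils and basophils.

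All 4 groups came from bone marrow of C57/B6 mice aged 8 to 12 weeks. CMPs and GMPs were sorted from lineage-negative, SCA-1-negative, C-KIT-positive, CD34-positive cells, CMPs as CD16/32-negative and GMPs as CD16/32-positive. CD62L-high and CD62L-low CMPs were the outer classes of a split of CMPs into 3 by surface CD62L (the study's text calls CD62L-low CMPs CD62L-neg CMPs). CD62L-high and CD62L-neg GMPs were the 10% of GMPs with the most and the 10% with the least surface CD62L, so the gates differ between the compartments, and gate and compartment cannot be told apart. The labels do not say whether the 3 libraries of a group came from separate mice, so p-values measure the spread between these libraries, which may be technical. In sorted bulk populations, fewer cells of a type and less RNA per cell cannot be told apart.

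Totals ran between 11.7 M and 14.7 M counts in CD62L-high CMPs, 7.06 M and 7.51 M in CD62L-low CMPs, 13.8 M and 15.1 M in CD62L-high GMPs, and 12.1 M and 12.8 M in CD62L-neg GMPs. CD62L-high GMP replicate 1 stood apart: 3 abundant gene models took 41.1% of its counts, against 27.8% and 29.5% in replicates 3 and 2, and its counts differed from each of those by a chi-square per gene of 87.8 or more, against 10.1 between them. Values are counts per 1000000 counts of the library (CPM) after TMM scaling, effects are log2 fold changes ± SE, and p-values come from edgeR's quasi-likelihood test with Benjamini-Hochberg adjustment over the 14168 genes. An effect was called at adjusted p under 0.05 and over 2-fold, and a difference at adjusted p under 0.05.

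Genes of the progenitor gates did not move alike. Kit, the stem cell factor receptor gated on as C-KIT, fell in CD62L-high GMPs, with an effect of -1.03 ± 0.14, and its effect in CMPs of -0.87 ± 0.14 was under 2-fold (adjusted p = 2.38e-05 in GMPs and 0.000118 in CMPs). The difference of Kit, 0.16, was not called. Cd34, a sialomucin of progenitors, had 403, 387 and 414 CPM in CD62L-high CMPs, against 141, 66.6 and 48 CPM in CD62L-low CMPs. In GMPs Cd34 had 190.4, 177 and 152 CPM in CD62L-high GMPs, against 144, 162 and 153 CPM in CD62L-neg GMPs. It rose in CMPs by 2.23 ± 0.26 and had an effect in GMPs of 0.18 ± 0.25 with overlapping libraries, a difference of 2.05 ± 0.36 (adjusted p = 0.00109). Fcgr2b and Fcgr3, which encode CD32 and CD16, had higher effects in CMPs, by 1.32 ± 0.27 and 1.10 ± 0.21 (adjusted p = 0.00328 and 0.00246). Fcgr3 still averaged only 15.3 ± 0.916 CPM in CD62L-high CMPs, against 8.25 ± 1.34 CPM in CD62L-low CMPs, below 151 ± 7.02 CPM in CD62L-high GMPs, against 173 ± 21.3 CPM in CD62L-neg GMPs (SD, n = 3 each).

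The CD62L effect differed between the compartments in 1292 genes. Of all genes tested, 861 had a higher effect in CMPs, which is 6.08%, and 431 a lower one, which is 3.04%. Within CMPs 843 genes rose in CD62L-high cells (5.95%) and 759 fell (5.36%). Within GMPs 665 genes rose (4.69%) and 921 fell (6.5%). Of the 764 genes called in both compartments, 723 moved in the same direction, 355 up in both and 368 down in both. The remaining 41, or 0.289% of the genes tested, moved in opposite directions, and the difference was called in all 41. The libraries of the 2 groups did not overlap in 39.9% of the genes tested in CMPs, in 33.1% in GMPs and in 17.5% in both. Across the genes tested, the 2 effects had a Pearson r of 0.487, a description only, since genes are not independent replicates.

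Among the 1292 genes, 32 rose in CMPs and fell in GMPs, and 9 fell in CMPs and rose in GMPs. In 176 the effect was called in CMPs only, with higher levels in CD62L-high cells, and in 96 in CMPs only, with lower levels. In 90 it was called in GMPs only, higher, and in 167 in GMPs only, lower. A missed threshold does not show that an effect is absent. The 95% interval of the uncalled effect lay inside 2-fold either way in 102 of the 176 genes, 56 of the 96, 55 of the 90 and 62 of the 167. Another 230 genes passed the adjusted p in both compartments in the same direction with unequal size, and 492 met none of these rules. The opposite counts rest on few libraries: 19 genes in place of 32 without CD62L-low CMP replicate 2 or without replicate 3, and 20 without CD62L-high CMP replicate 2. The 9 genes became 5 without CD62L-neg GMP replicate 1 and 17 without CD62L-high GMP replicate 3.

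**Figure D1:**
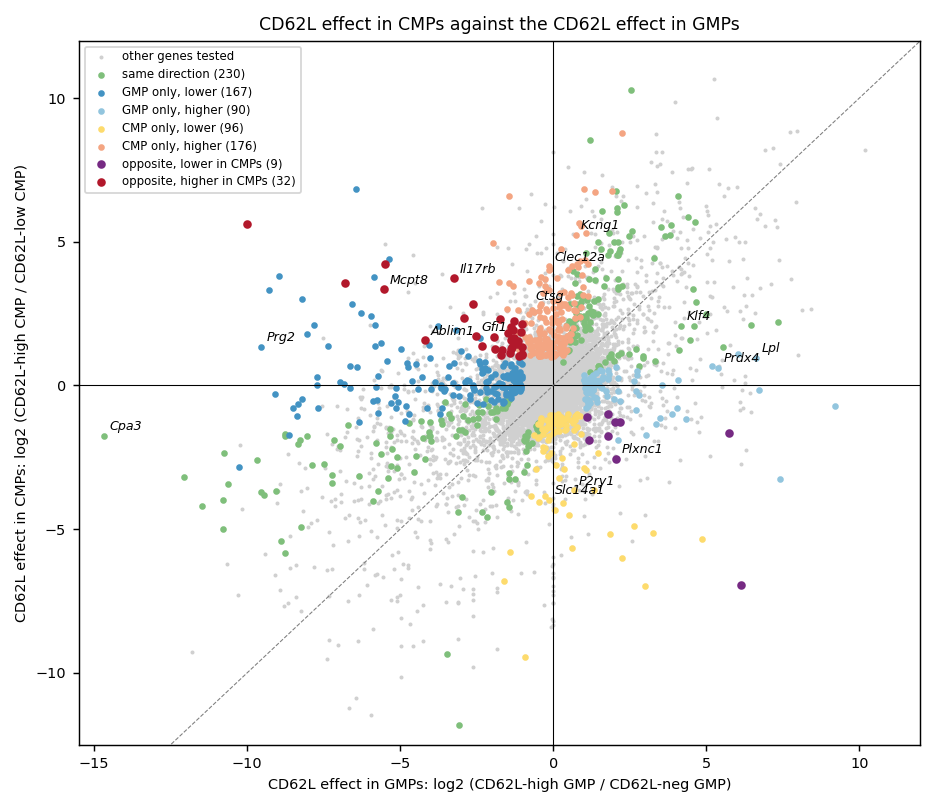
CD62L effect in CMPs (vertical axis, log2 CD62L-high over CD62L-low) against the CD62L effect in GMPs (horizontal axis, log2 CD62L-high over CD62L-neg), 1 point per gene of 14168 tested, coloured by class; on the dashed line the 2 effects are equal. The 32 genes in dark red stand at the upper left, with Gfi1 at 1.71 and -2.52, and the 9 in purple at the lower right, with Plxnc1 at -2.56 and 2.05. The farthest points are of genes at or near 0 counts in 1 group, whose fitted size is not a bound.

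Gfi1 rose in CMPs and fell in GMPs. It encodes a zinc finger repressor needed for neutrophil formation in mice, and it lies at chr5:107716657-107726036, minus strand (GRCm38). Gfi1 had 19.4, 24.1 and 22.9 CPM in CD62L-high CMPs, against 8.07, 6.28 and 5.96 CPM in CD62L-low CMPs. In GMPs it had 16.8, 26.1 and 24.2 CPM in CD62L-high GMPs, against 123, 124 and 139 CPM in CD62L-neg GMPs. CD62L-high CMPs and CD62L-high GMPs thus held similar amounts, with CD62L-low CMPs below them and CD62L-neg GMPs well above. The libraries did not overlap within either compartment, which the rule for naming genes fixes. The effects were 1.71 ± 0.20 in CMPs and -2.52 ± 0.18 in GMPs, and the difference 4.23 ± 0.26 (adjusted p = 4.67e-08). Without CD62L-high GMP replicate 1 the difference was 4.05.

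Mcpt8, a serine protease of basophils, and Epx, the peroxidase of eosinophil granules, fell steeply in CD62L-high GMPs. Mcpt8 had 4.69, 2.8 and 2.28 CPM in CD62L-high CMPs, against 0.745, 0.131 and 0 CPM in CD62L-low CMPs. In GMPs it had 2.85, 3.04 and 1.99 CPM in CD62L-high GMPs, against 111, 164 and 90.1 CPM in CD62L-neg GMPs. It was thus a low-abundance transcript everywhere but in CD62L-neg GMPs, with a difference of 8.89 ± 0.62 (adjusted p = 1.06e-07). Epx had 0, 0.304 and 0.686 CPM in CD62L-high GMPs, against 305, 432 and 378 CPM in CD62L-neg GMPs. In CMPs its opposite direction rests on 22 counts over the 3 CD62L-high libraries and 0 over the 3 CD62L-low ones, at least 3.86-fold higher against a floor of 3 counts over the group. That call in CMPs was lost when any of 6 of the 12 libraries was left out, with adjusted p between 0.0506 and 0.103. It was also lost with the replicate number as a block and with all 21 libraries in the fit (adjusted p = 0.0537 and 0.169).

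Il17rb, a subunit of the IL-25 receptor, had 8.49, 7.22 and 7.04 CPM in CD62L-high CMPs, against 1.24, 0.392 and 0 CPM in CD62L-low CMPs. Its GMP libraries held 2.76, 1.75 and 1.03 CPM in CD62L-high GMPs, against 15.8, 18.2 and 17.8 CPM in CD62L-neg GMPs. The effects were 3.73 ± 0.58 in CMPs and -3.23 ± 0.48 in GMPs, and the difference 6.96 ± 0.75 (adjusted p = 9.40e-06). Ablim1, an actin-binding LIM protein, had 18.6, 24.7 and 18.7 CPM in CD62L-high CMPs, against 14.8, 1.7 and 4.16 CPM in CD62L-low CMPs. In GMPs Ablim1 held 1.59, 1.97 and 1.58 CPM in CD62L-high GMPs, against 35.5, 28.2 and 29.9 CPM in CD62L-neg GMPs. Its libraries did not overlap within either compartment, which the rule for naming genes fixes. CD62L-low CMP replicate 1 stood close to the CD62L-high CMPs. The difference of 5.75 ± 0.67 (adjusted p = 2.04e-05) was called without any one library, whereas the effect in CMPs was not called without CD62L-low CMP replicate 2 or 3 or CD62L-high CMP replicate 2 (adjusted p = 0.0536, 0.0928 and 0.0633).

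Fmnl2, Tspan2 and Tespa1 moved in the same directions. The formin Fmnl2, which elongates actin filaments, had 17.9, 23.3 and 29.5 CPM in CD62L-high CMPs, against 6.08, 2.75 and 5.27 CPM in CD62L-low CMPs. In GMPs Fmnl2 had 1.17, 6.15 and 6.11 CPM in CD62L-high GMPs, against 15.1, 12.8 and 17.3 CPM in CD62L-neg GMPs. Its difference was 4.06 ± 0.61 (adjusted p = 0.00026), with CD62L-high GMP replicate 1 below the other 2. The tetraspanin gene Tspan2 had 24.8, 17.8 and 18.7 CPM in CD62L-high CMPs, against 7.57, 3.92 and 3.47 CPM in CD62L-low CMPs. GMP libraries held 7.87, 6.68 and 14.5 CPM in CD62L-high GMPs, against 26, 27.1 and 22.9 CPM in CD62L-neg GMPs for this gene. Its effects were 2.02 ± 0.33 and -1.38 ± 0.30 and their difference 3.41 ± 0.45. Tespa1, known from T cell receptor signalling in thymocytes, averaged 24 ± 3.09 CPM in CD62L-high CMPs, against 9.21 ± 2.78 CPM in CD62L-low CMPs. It averaged 3.62 ± 0.689 CPM in CD62L-high GMPs, against 18.2 ± 3.5 CPM in CD62L-neg GMPs (SD, n = 3 each), a difference of 3.70 ± 0.37 (adjusted p = 4.97e-06).

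Cd244a, Otogl and Tnfrsf26 also belonged to the 32 genes. The SLAM-family receptor gene Cd244a averaged 14.2 ± 2.17 CPM in CD62L-high CMPs, against 4.38 ± 3.74 CPM in CD62L-low CMPs, then 2.94 ± 1.71 CPM in CD62L-high GMPs, against 11.4 ± 2.82 CPM in CD62L-neg GMPs (SD, n = 3 each). Its effect in CMPs was lost without any of 4 libraries (CD62L-low CMP replicates 2 and 3, CD62L-high CMP replicates 2 and 3), with adjusted p between 0.0603 and 0.109. The otogelin-like gene Otogl kept its effect in CMPs of 2.25 ± 0.49, whereas its effect in GMPs of -1.28 ± 0.36 missed the threshold without CD62L-neg GMP replicate 1 or CD62L-high GMP replicate 3 (adjusted p = 0.0926 and 0.0681). Tnfrsf26, a TNF receptor family gene, had effects of 1.82 ± 0.37 and -1.47 ± 0.33, and its CMP and GMP levels in CD62L-high cells were close, at 5.92 ± 0.69 CPM and 5.29 ± 1.06 CPM. The differences of these 3 genes were 3.63 ± 0.71, 3.53 ± 0.61 and 3.29 ± 0.50 (adjusted p = 0.00256, 0.00105 and 0.000286).

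Ccl4, a chemokine also known as MIP-1β, and Prss57, a serine protease of neutrophil granules, were in the same class. Ccl4 had 45.9, 52.5 and 75 CPM in CD62L-high CMPs, against 24.7, 12.9 and 7.76 CPM in CD62L-low CMPs. In GMPs Ccl4 had 6.45, 8.58 and 8.58 CPM in CD62L-high GMPs, against 20.3, 21.2 and 17.9 CPM in CD62L-neg GMPs. It was most abundant in CD62L-high CMPs, unlike Gfi1, and its difference was 3.25 ± 0.43 (adjusted p = 7.69e-05). Prss57 was most abundant in CD62L-neg GMPs, with 39.1, 22.4 and 21 CPM in CD62L-high GMPs, against 94.7, 109 and 102 CPM in CD62L-neg GMPs. In CMPs Prss57 had 10.6, 7.54 and 10.4 CPM in CD62L-high libraries, against 3.97, 4.32 and 3.6 CPM in CD62L-low ones, and its difference was 3.15 ± 0.33 (adjusted p = 7.84e-06). Of the 32 genes, 21 were highest in CD62L-neg GMPs and 11 in CD62L-high CMPs, when the 4 group means were ranked. In 31 of the 32 the libraries did not overlap within either compartment, which the choice of the genes largely fixes.

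Plxnc1, which encodes a semaphorin receptor, fell in CMPs and rose in GMPs. It lies at chr10:94790866-94944835, minus strand (GRCm38). Plxnc1 had 41.5, 51.7 and 47.7 CPM in CD62L-high CMPs, against 242, 292 and 295 CPM in CD62L-low CMPs. In GMPs Plxnc1 had 73.7, 66 and 66 CPM in CD62L-high GMPs, against 14.2, 17.8 and 17.6 CPM in CD62L-neg GMPs. All 3 CD62L-low CMP libraries were above every other library, and all 3 CD62L-neg GMP libraries below. The effects were -2.56 ± 0.15 in CMPs and 2.05 ± 0.15 in GMPs, and the difference -4.61 ± 0.21 (adjusted p = 4.20e-10).

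Of the 9 genes that fell in CMPs and rose in GMPs, 8 were highest in CD62L-low CMPs. Zfp385a, a zinc finger gene, had 26.9, 24.3 and 29.9 CPM in CD62L-high CMPs, against 73.6, 64.9 and 58.9 CPM in CD62L-low CMPs. In GMPs it had 50.7, 34.9 and 38.6 CPM in CD62L-high GMPs, against 10.3, 11.4 and 5.91 CPM in CD62L-neg GMPs. Its difference was -3.45 ± 0.30 (adjusted p = 1.34e-06), and the rule for naming genes fixes that its libraries did not overlap within either compartment. The phosphatase gene Dusp3 averaged 9.43 ± 1.64 CPM in CD62L-high CMPs, against 22.9 ± 6.97 CPM in CD62L-low CMPs, then 9.82 ± 0.992 CPM in CD62L-high GMPs, against 2.43 ± 0.483 CPM in CD62L-neg GMPs (SD, n = 3 each). Tnfaip2, a gene induced by tumour necrosis factor, had effects of -1.01 ± 0.18 and 1.80 ± 0.18, the effect in CMPs being just over 2-fold and under it without CD62L-low CMP replicate 2 or CD62L-high CMP replicate 2 or 3. The syntaxin Stx11, known for granule release in cytotoxic lymphocytes, had effects of -1.91 ± 0.38 and 1.17 ± 0.37. Its effect in GMPs was lost without CD62L-neg GMP replicate 1 or 3, or without CD62L-high GMP replicate 1 (adjusted p = 0.129, 0.129 and 0.139). Differences were -3.28 ± 0.41 for Dusp3, -2.81 ± 0.25 for Tnfaip2 and -3.08 ± 0.53 for Stx11 (adjusted p = 4.44e-05, 1.59e-06 and 0.000978).

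**Figure D2:**
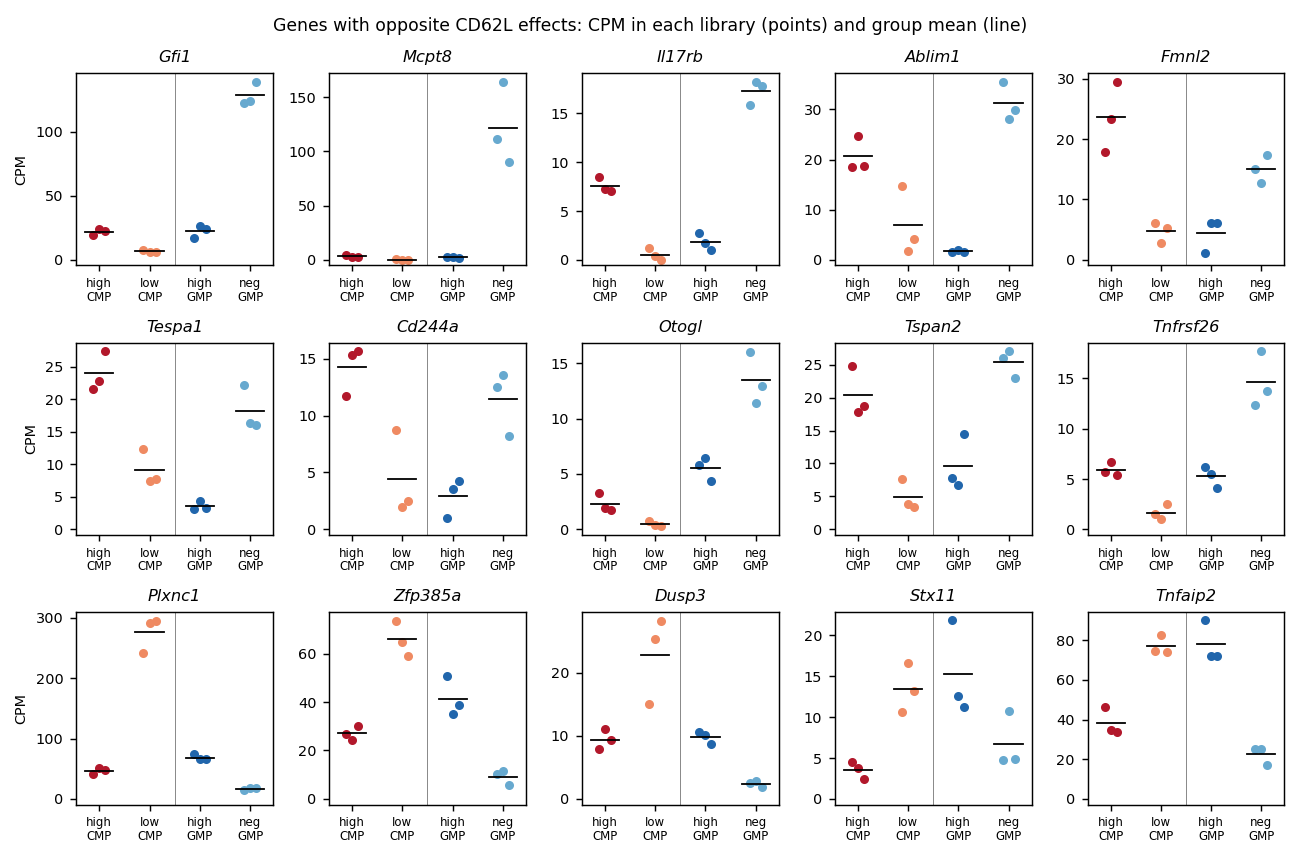
CPM (linear axis) of 15 genes with opposite CD62L effects in each of the 12 libraries (points) with the group mean (line); groups are CD62L-high CMP, CD62L-low CMP, CD62L-high GMP and CD62L-neg GMP. The upper 10 genes are higher in CD62L-high than in CD62L-low CMPs and lower in CD62L-high than in CD62L-neg GMPs, and the 5 genes of the bottom row the reverse, as for Plxnc1.

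A further population of the series, CD62L-low GMPs, was not used to choose these genes. Its mean lay between CD62L-high and CD62L-neg GMPs in 30 of the 32 genes and above both in 2. For the 9 genes it lay between them in 8. The gap between the outer GMP groups that chose the genes largely fixes these counts: over all genes tested the mean lay between them in 52.2%, but in 87% of all genes that fell in GMPs and in 97.1% of all that rose.

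Of the 176 genes that rose in CD62L-high CMPs only, 62 were highest in CD62L-neg GMPs, 55 in CD62L-high GMPs and 59 in CD62L-high CMPs by group mean. Clec12a, an inhibitory C-type lectin receptor, had 115, 62.1 and 79.7 CPM in CD62L-high CMPs, against 8.19, 3.79 and 2.36 CPM in CD62L-low CMPs. In GMPs Clec12a had 165, 155 and 177 CPM in CD62L-high GMPs, against 158, 194 and 193 CPM in CD62L-neg GMPs. CD62L-low CMPs alone lacked most of the transcript. The effect was 4.14 ± 0.31 in CMPs and -0.13 ± 0.24 in GMPs, with a 95% interval of -0.64 to 0.38, inside 2-fold, and the difference was 4.28 ± 0.39 (adjusted p = 1.82e-06). Trem1, a receptor of neutrophils and monocytes, Rab7b, a GTPase of endosomes, and Kcnip3, a calcium-binding protein, had the same pattern, with effects in CMPs of 4.05 ± 0.58, 4.0 ± 0.47 and 3.73 ± 0.37. Their effects in GMPs were -0.09 ± 0.43, -0.13 ± 0.37 and 0.12 ± 0.27, and the libraries overlapped in GMPs.

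Kcng1 and H2-Eb1 instead were low in all GMP libraries. The potassium channel gene Kcng1 had 43, 36.3 and 25 CPM in CD62L-high CMPs, against 2.23, 0.392 and 0 CPM in CD62L-low CMPs. In GMPs Kcng1 had 0.67, 3.49 and 2.47 CPM in CD62L-high GMPs, against 1.33, 0.966 and 1.72 CPM in CD62L-neg GMPs. The interval of its effect in GMPs was wide at -0.56 to 2.02, and its difference 4.52 ± 0.91 (adjusted p = 0.00328). H2-Eb1, a chain of MHC class II, had 20.3, 37.2 and 41.3 CPM in CD62L-high CMPs, against 1.74, 0.262 and 0.416 CPM in CD62L-low CMPs. GMP libraries had 1.68, 4.4 and 7.89 CPM in CD62L-high GMPs, against 1.41, 3.06 and 2.22 CPM in CD62L-neg GMPs for H2-Eb1. Its effect in GMPs of 1.07 ± 0.51 was uncalled and became 1.47 (adjusted p = 0.0235) without CD62L-high GMP replicate 1, and its difference was then 3.83 rather than 4.24.

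Dendritic cell genes were counted as a list. In the list of dendritic cell and antigen presentation genes, 6 of 18 tested had a higher effect in CMPs, against 6.08% of all genes tested, and none a lower one. In CMPs 13 rose (5.95% of all genes) and in GMPs 7 (4.69%). The median difference was 2.50, against 0.06 over all genes tested. Cd74, the MHC class II chaperone, rose in both compartments, by 6.29 ± 0.53 in CMPs and 2.30 ± 0.46 in GMPs, a difference of 3.99 ± 0.71 (adjusted p = 0.00124). H2-Aa, an MHC class II chain, rose by 6.06 ± 0.61 in CMPs. Its effect in GMPs of 1.59 ± 0.52 was no longer called without CD62L-high CMP replicate 2 or 3, CD62L-neg GMP replicate 1 or 3 or CD62L-high GMP replicate 3 (adjusted p between 0.0565 and 0.164). That call was also lost with DESeq2's Wald test and with the replicate number as a block (adjusted p = 0.231 and 0.0686). Id2, an inhibitor of helix-loop-helix factors needed by dendritic cells in mice, had 16.9, 23.2 and 29 CPM in CD62L-high CMPs, against 2.48, 0.916 and 0.416 CPM in CD62L-low CMPs. In GMPs Id2 had 1.59, 4.48 and 2.2 CPM in CD62L-high GMPs, against 1.33, 1.69 and 2.38 CPM in CD62L-neg GMPs, a difference of 3.53 ± 0.71 (adjusted p = 0.00321). The summed CPM of the list was 775 to 1022 in CD62L-high CMPs, against 125 to 208 in CD62L-low CMPs. It was 183 to 215 in CD62L-high GMPs, against 94.8 to 115 in CD62L-neg GMPs. The part of such cells in the genes that rose in CMPs was not tested.

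Of the 96 genes that fell in CMPs only, 91 were highest in CD62L-low CMPs, and genes of megakaryocytes and platelets were among them. P2ry1, a platelet receptor for ADP, had 5.58, 4.68 and 1.65 CPM in CD62L-high CMPs, against 45.4, 52.8 and 50.5 CPM in CD62L-low CMPs. In GMPs it had 19.1, 11.7 and 7.75 CPM in CD62L-high GMPs, against 7.36, 9.82 and 6.98 CPM in CD62L-neg GMPs. The difference was -4.32 ± 0.51 (adjusted p = 2.12e-05), and the GMP libraries overlapped. Ptgs1, the cyclooxygenase that platelets use, had 2.43, 5.72 and 2.22 CPM in CD62L-high CMPs, against 30.7, 34.7 and 31.5 CPM in CD62L-low CMPs. Its GMP libraries held 27.7, 27.1 and 27.9 CPM in CD62L-high GMPs, against 19.3, 22.7 and 29.9 CPM in CD62L-neg GMPs. Ptgs1 was thus at a similar level in CD62L-low CMPs and in both GMP groups, with an interval of -0.34 to 0.75 for the effect in GMPs.

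Slc14a1, a urea transporter, was in contrast a transcript of CD62L-low CMPs, with 15.9, 13 and 10.8 CPM in CD62L-high CMPs, against 191, 211 and 223 CPM in CD62L-low CMPs. In GMPs Slc14a1 had 5.36, 2.58 and 4.05 CPM in CD62L-high GMPs, against 6.18, 3.06 and 3.78 CPM in CD62L-neg GMPs. Its difference was -3.85 ± 0.36 (adjusted p = 1.97e-06). Phlda1 and Smim5 had that pattern too, with effects in CMPs of -4.05 ± 0.41 and -3.86 ± 0.45 and effects in GMPs of -0.46 ± 0.38 and -0.28 ± 0.44. The phosphatase gene Ptpn14 had at most 1.11 CPM in CD62L-high CMPs, against 25, 36.8 and 44.2 CPM in CD62L-low CMPs, and under 2.0 CPM in every GMP library. Its difference of -4.37 ± 1.05 was lost without CD62L-high GMP replicate 2 (adjusted p = 0.0694). Nfe2, a transcription factor of platelet formation, fell in CMPs, with an effect of -1.09 ± 0.18, and had an effect in GMPs of 0.02 ± 0.17 (difference -1.11 ± 0.25, adjusted p = 0.00702). Itgb3, a platelet integrin chain, fell in CMPs, with an effect of -2.38 ± 0.28. Its effect in GMPs of 0.95 ± 0.29 was just under 2-fold, and leaving out any 1 of the 6 GMP libraries moved it between 0.62 and 1.42 (adjusted p between 0.00193 and 0.115), over 2-fold and called without CD62L-neg GMP replicate 2 or CD62L-high GMP replicate 2.

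Among 29 tested megakaryocyte and platelet genes, 20 fell in CMPs and 13 in GMPs, against 5.36% and 6.5% of all genes tested. The effect was lower in CMPs in 8 (3.04% of all genes) and higher in 3 (6.08%). The 3 became 1 without CD62L-low CMP replicate 2 or 3, CD62L-high CMP replicate 1 or CD62L-neg GMP replicate 1. The summed CPM of this list was 1080 to 1222 in CD62L-high CMPs, against 1903 to 2154 in CD62L-low CMPs. It was 1752 to 1847 in CD62L-high GMPs, against 522 to 537 in CD62L-neg GMPs, the other order. F13a1, the A chain of coagulation factor XIII, which monocytes make too, gave 760.5 ± 103 CPM of that in CD62L-high CMPs, against 14.8 ± 5.33 CPM in CD62L-low CMPs, and 1514 ± 72.2 CPM in CD62L-high GMPs, against 60.5 ± 12.7 CPM in CD62L-neg GMPs (SD, n = 3 each). F13a1 was named after its values were seen. Of 24 erythroid genes, 20 fell in CMPs and 14 in GMPs, with the same shares of all genes as above. Among these 24 the effect was lower in CMPs in 3 (3.04% of all genes) and higher in 2 (6.08%). The summed CPM of the erythroid list was 537 to 600 in CD62L-high CMPs, against 2089 to 2282 in CD62L-low CMPs. It was 350 to 438 in CD62L-high GMPs, against 594 to 670 in CD62L-neg GMPs. The part of erythroid and megakaryocyte cells in the genes that fell in CMPs was not tested.

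Of the 90 genes that rose in CD62L-high GMPs only, 64 were highest in CD62L-high GMPs and 23 in CD62L-low CMPs, and in 85 CD62L-low GMPs lay between the outer GMP groups (97.1% of all genes that rose in GMPs). Prdx4, a peroxiredoxin of the secretory pathway, had 51.8, 29.1 and 25.3 CPM in CD62L-high GMPs, against 0.626, 1.29 and 0.575 CPM in CD62L-neg GMPs. In CMPs Prdx4 had 23.3, 18 and 22.5 CPM in CD62L-high CMPs, against 11.5, 18.4 and 11.4 CPM in CD62L-low CMPs. CD62L-neg GMPs thus lay below every other library of the 12. Prdx4 rose in GMPs by 5.40 ± 0.38 and had an effect in CMPs of 0.62 ± 0.29, a difference of -4.77 ± 0.48 (adjusted p = 4.60e-06). Lpl, lipoprotein lipase, had 17.3, 18.7 and 15.3 CPM in CD62L-high GMPs, against 0, 0.0805 and 0.41 CPM in CD62L-neg GMPs. Its CMP libraries held 1.7, 1.04 and 1.65 CPM in CD62L-high CMPs, against 0.993, 0.654 and 0.555 CPM in CD62L-low CMPs. The CMP groups did not overlap, but the effect in CMPs of 0.97 ± 0.56 was not called (adjusted p = 0.271).

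Pros1, Selp, Plxdc1 and Plcb1 rose in GMPs only as well. The anticoagulant protein S gene Pros1 had 12.2, 7.44 and 12.8 CPM in CD62L-high GMPs, against 1.25, 0.161 and 0.739 CPM in CD62L-neg GMPs. In CMPs the order was the other way, with 2.02, 3.45 and 4.31 CPM in CD62L-high CMPs, against 5.71, 4.84 and 9.01 CPM in CD62L-low CMPs, and that effect of -0.99 ± 0.48 was not called (adjusted p = 0.171). The difference was -4.88 ± 0.72 (adjusted p = 0.000243). Selp encodes P-selectin, an adhesion receptor of platelets and endothelium. It had 9.38, 5.31 and 2.06 CPM in CD62L-high GMPs, against 0.783, 0.161 and 0 CPM in CD62L-neg GMPs. In CMPs, Selp had 14.4, 20.1 and 17.2 CPM in CD62L-high CMPs, against 17, 14.4 and 13.9 CPM in CD62L-low CMPs, with an interval of -0.77 to 1.16 for the effect. Its difference was -3.88 ± 0.81 (adjusted p = 0.00447), or -3.30 without CD62L-high GMP replicate 1. Plxdc1 rose in GMPs by 5.17 ± 0.70 and the phospholipase gene Plcb1 by 2.79 ± 0.33, with effects in CMPs of 0.69 ± 0.58 and -0.33 ± 0.34. Nr4a1, an orphan nuclear receptor of monocyte formation in mice, Zeb2, a zinc finger repressor, and Atf3, a stress-induced transcription factor, also rose in GMPs only. For Nr4a1 the values were 22.7, 38.3 and 33.8 CPM in CD62L-high GMPs, against 7.51, 8.29 and 6.16 CPM in CD62L-neg GMPs. In CMPs Nr4a1 had 108, 178 and 186 CPM in CD62L-high CMPs, against 193, 202 and 145 CPM in CD62L-low CMPs. The CMP libraries overlapped and all were above the highest CD62L-high GMP library, and the difference was -2.30 ± 0.32 (adjusted p = 0.000119). Zeb2 and Atf3 had differences of -1.23 ± 0.18 and -1.69 ± 0.31 (adjusted p = 0.000221 and 0.00162).

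Of the 167 genes that fell in GMPs only, 106 were highest in CD62L-neg GMPs, 32 in CD62L-low CMPs and 29 in CD62L-high CMPs. In 155 CD62L-low GMPs lay between the outer GMP groups (87% of all genes that fell in GMPs). Cebpe, a C/EBP factor needed for late neutrophil and eosinophil granules in mice, had 0.838, 1.9 and 7.07 CPM in CD62L-high GMPs, against 49.9, 56.8 and 61.1 CPM in CD62L-neg GMPs. In CMPs Cebpe had 1.94, 3.71 and 1.71 CPM in CD62L-high CMPs, against 0.745, 0.523 and 1.52 CPM in CD62L-low CMPs. Its effects were -4.06 ± 0.50 in GMPs and 1.41 ± 0.66 in CMPs, and the difference 5.48 ± 0.80 (adjusted p = 0.000207). The CMP effect was not called (adjusted p = 0.157), but its groups did not overlap, and without CD62L-high GMP replicate 3 it passed (adjusted p = 0.0294). Prg2, the eosinophil major basic protein, had 0, 0.0759 and 3.98 CPM in CD62L-high GMPs, against 865, 1369 and 1029 CPM in CD62L-neg GMPs. The highest of the 6 CMP libraries held 4.21 CPM. Prg2 was among the most unequal genes, with a difference of 10.89 ± 1.27 (adjusted p = 2.04e-05).

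Prom1, Pglyrp1 and Sept1 had few reads in CD62L-high GMPs. Prom1, which encodes CD133, had 1.09, 0.455 and 2.95 CPM in CD62L-high GMPs, against 31.9, 47.3 and 46.2 CPM in CD62L-neg GMPs. All CMP libraries were at or below 1.46 CPM, and its difference was 5.55 ± 1.0 (adjusted p = 0.00141). The antibacterial peptidoglycan receptor gene Pglyrp1 had 3.6, 1.29 and 3.09 CPM in CD62L-high GMPs, against 38.4, 49.5 and 42.1 CPM in CD62L-neg GMPs. CMP libraries of Pglyrp1 lay between 0.497 and 2.67 CPM and overlapped. The septin gene Sept1, in contrast, was present in CMPs at 16.3, 21.5 and 21.6 CPM in CD62L-high libraries, against 41, 12.8 and 30.2 CPM in CD62L-low ones. In GMPs Sept1 had 0, 0.304 and 2.06 CPM in CD62L-high GMPs, against 37.3, 59.7 and 39.8 CPM in CD62L-neg GMPs, and its difference was 5.25 ± 0.74 (adjusted p = 0.000151). Phldb2 fell in GMPs, with effects of -4.99 ± 0.72 there and 1.28 ± 0.67 in CMPs. Vcam1, an adhesion molecule, averaged 2.44 ± 0.895 CPM in CD62L-high GMPs, against 48.4 ± 7.92 CPM in CD62L-neg GMPs (SD, n = 3 each), with at most 1.08 CPM in any CMP library. Hoxa9 and Sox4, transcription factors of immature progenitors, fell in GMPs, with effects of -1.60 ± 0.25 and -1.30 ± 0.13 there and 0.28 ± 0.24 and -0.24 ± 0.13 in CMPs. Rgcc, a cell cycle regulator, fell in GMPs too, with effects of -1.39 ± 0.19 there and 0.30 ± 0.21 in CMPs.

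**Figure D3:**
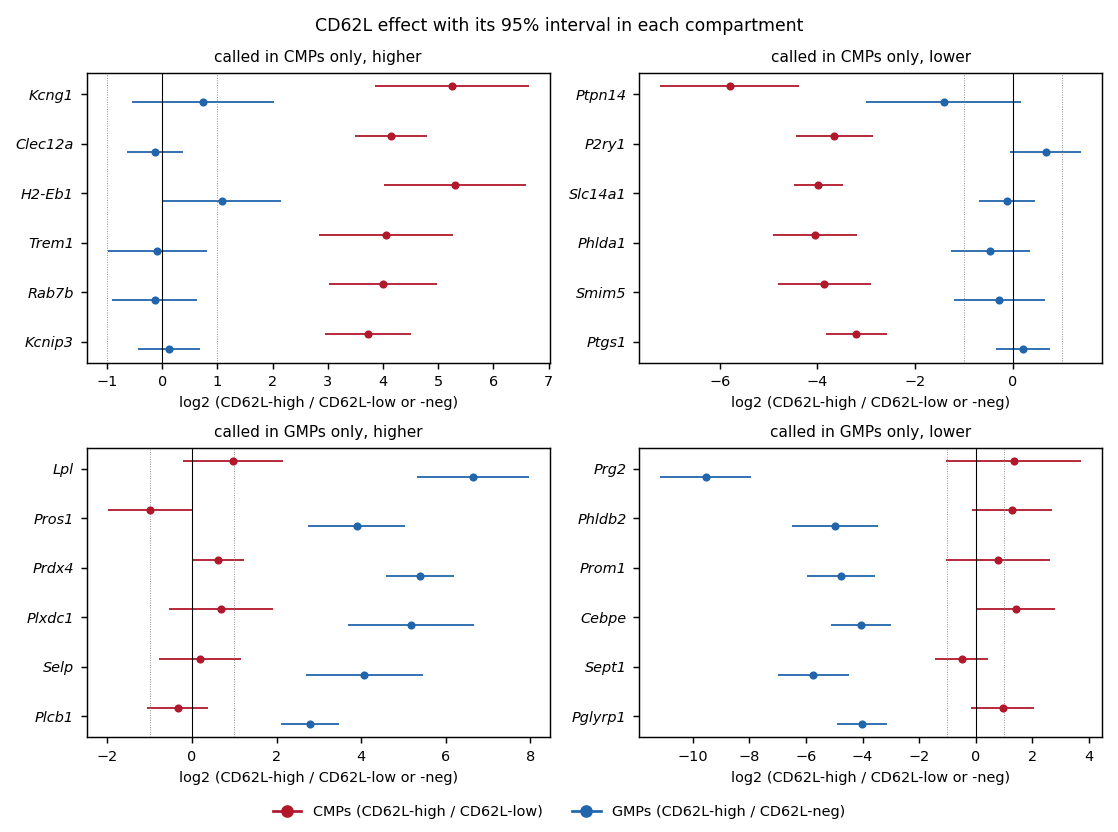
CD62L effect (log2, points) with its 95% interval (bars) in CMPs (red) and GMPs (blue) for 24 genes called in 1 compartment only; dotted lines mark 2-fold either way. For Clec12a and Slc14a1 the GMP interval lies inside the dotted lines, whereas for Kcng1 and Ptpn14 it reaches beyond them.

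Eosinophil and basophil genes fell with CD62L in GMPs. They mark cell types that the gates could hold. In the eosinophil list, 11 of 11 tested genes fell in CD62L-high GMPs, against 6.5% of all genes tested. In CMPs 1 rose (5.95% of all genes) and 2 fell (5.36%). A higher effect in CMPs was called in 5 (Epx, Prg2, Prg3, Ear6 and Cebpe), against 6.08%. The summed CPM of that list was 4.44 to 18 in CD62L-high GMPs, against 1357 to 2069 in CD62L-neg GMPs. It was 6.34 to 12.7 in CD62L-high CMPs, against 96.6 to 116 in CD62L-low CMPs. Ccr3, an eosinophil chemokine receptor, had too few reads to test. Prg3 and Ear6 held 9 and 4 counts over the CD62L-high CMP libraries and 0 over the CD62L-low ones, so their fitted effects there are not sizes, and the difference of Prg3 was lost without CD62L-high CMP replicate 1 (adjusted p = 0.0783).

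Of 24 basophil and mast cell genes tested, 17 fell in CMPs and 22 in GMPs, against 5.36% and 6.5% of all genes tested. A higher effect in CMPs was called in 13, against 6.08%, and in 22 of the 24 the effect was more positive in CMPs, against 53.8%. A lower effect in CMPs was called only in Ptgs1. Cpa3, carboxypeptidase A3 of mast cells and basophils, was at 0 counts in all 3 CD62L-high GMP libraries, against 242, 357 and 222 CPM in CD62L-neg GMPs, at least 3624-fold lower against a floor of 3 counts over the group. In CMPs Cpa3 had 11.3, 17.4 and 22.5 CPM in CD62L-high CMPs, against 82.9, 53.2 and 36.9 CPM in CD62L-low CMPs, an effect of -1.75 ± 0.29. Prss34, a basophil protease, had 0, 0.228 and 0.137 CPM in CD62L-high GMPs, against 226, 309 and 180.0 CPM in CD62L-neg GMPs. In CMPs its highest library held 1.25 CPM. Gata2, a factor of stem cells, basophils and mast cells, fell in both, with effects of -4.03 ± 0.31 in CMPs and -5.90 ± 0.36 in GMPs, and so did Angpt1, a growth factor of stem and progenitor cells, with -2.01 ± 0.27 and -5.79 ± 0.36. Summed CPM of the list was 512 to 576 in CD62L-high GMPs, against 2629 to 3500 in CD62L-neg GMPs, and 479 to 609 in CD62L-high CMPs, against 1911 to 1975 in CD62L-low CMPs. Mcpt1 and Tpsab1 were at 0 in all 12 libraries. The part of these cell types in the genes that fell in GMPs was not tested.

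Neutrophil primary granule genes moved apart between the compartments. A higher effect in CMPs was called in 12 of 14 tested genes, or 85.7%, against 6.08% of all genes, and a lower one only in Ctsc. The list is not of granule contents only: it also holds Hk3, a hexokinase, and Calr, an ER chaperone. The median effect was 1.39 in CMPs and -0.51 in GMPs, and the median difference 1.94, against 0.06 over all genes tested. Mpo, the peroxidase of these granules, had 7720, 6814 and 6619 CPM in CD62L-high CMPs, against 1609, 947 and 770.5 CPM in CD62L-low CMPs. In GMPs Mpo had 21364, 16348 and 16369 CPM in CD62L-high GMPs, against 20280, 21527 and 21728 CPM in CD62L-neg GMPs. CD62L-low CMPs held the least Mpo, and CD62L-low CMP replicate 1 stood above the other 2 libraries. The effects were 2.67 ± 0.21 in CMPs and -0.23 ± 0.20 in GMPs, and the difference 2.90 ± 0.28 (adjusted p = 3.25e-06). In GMPs only CD62L-high GMP replicate 1 overlapped the CD62L-neg libraries. Without it the effect of Mpo in GMPs was -0.36 and uncalled (adjusted p = 0.197).

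The proteases of these granules differed among themselves in GMPs. Ctsg, cathepsin G, had 285, 243 and 267 CPM in CD62L-high CMPs, against 51.7, 27.5 and 35.2 CPM in CD62L-low CMPs. In GMPs Ctsg had 567, 592 and 592 CPM in CD62L-high GMPs, against 941, 1046 and 993 CPM in CD62L-neg GMPs. It therefore rose in CMPs by 2.80 ± 0.18, and its effect in GMPs of -0.77 ± 0.16 was under 2-fold (adjusted p = 0.00245), a difference of 3.56 ± 0.24 (adjusted p = 8.66e-08). Elane, neutrophil elastase, had 249, 222 and 193 CPM in CD62L-high CMPs, against 93.4, 72.2 and 58.1 CPM in CD62L-low CMPs. Its GMP libraries held 2636, 1951 and 1979 CPM in CD62L-high GMPs, against 2411, 2641 and 2786 CPM in CD62L-neg GMPs. Elane rose in CMPs by 1.57 ± 0.17 and overlapped in GMPs through CD62L-high GMP replicate 1 alone. Without that library its effect in GMPs was -0.40 and uncalled (adjusted p = 0.0574). Prtn3, proteinase 3, and Hk3, a hexokinase of neutrophil precursors, rose in CMPs by 2.81 ± 0.21 and 3.21 ± 0.21 with effects in GMPs of 0.33 ± 0.19 and 0.22 ± 0.19. Ctsc, the protease that activates the granule serine proteases, rose in both, by 0.98 ± 0.17 in CMPs and 1.83 ± 0.16 in GMPs. Its difference of -0.85 ± 0.23 (adjusted p = 0.025) was lost without any of 5 libraries (CD62L-low CMP replicate 1, CD62L-high CMP replicates 1 and 2, CD62L-neg GMP replicate 2 and CD62L-high GMP replicate 3), with adjusted p between 0.0519 and 0.0745. Summed CPM of the list was 9535 to 10685 in CD62L-high CMPs, against 2068 to 3144 in CD62L-low CMPs. It was 23383 to 28489 in CD62L-high GMPs, against 30496 to 32692 in CD62L-neg GMPs, so that every GMP library was above every CMP library.

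Promoter sequences of 3 granule genes are shown because the effect was more positive in CMPs in 13 of the 14 tested genes of this list. RefSeq promoters (250 bases before to 50 after the start site, GRCm38.p6) were found for 9578 of the 14168 genes tested and for 12 of the 15 listed granule genes. The letters AGGAAGT on either strand, a core to which PU.1 can bind, stood in 6 of these 12 (50%) and in 902 of the 9578 (9.42%). The 6 include Ctsc, whose difference was negative. Of the other 4 motifs searched, the C/EBP letters TTGCNNAA and the GFI1 letters AAATCA each stood in 1 of the 12 (8.33%), against 8.28% and 8.16% of all promoters. The GATA letters AGATAA stood in none, against 6.42%, and the ER stress response element, spelled out with the ER genes, in that of Calr. The letters AGGAAGT stood in 26 of 133 promoters (19.5%) of genes raised in CMPs only. The 26 include Mpo, Elane, Prtn3 and Hk3 of the granule list, so the 2 shares are not separate. For genes raised in GMPs only AGGAAGT stood in 5 of 52 (9.62%). In the 133 promoters the C/EBP letters stood in 19 (14.3%), the GFI1 letters in 11 (8.27%) and the GATA letters in 5 (3.76%). In the 52 promoters they stood in 3 (5.77%), 4 (7.69%) and 3 (5.77%). A match is a description of letters and not a binding site. The promoters of Mpo (chr11:87793534-87793833 on the plus strand), Elane (chr10:79886062-79886361 on the plus strand) and Ctsg (chr14:56102525-56102824 on the minus strand) follow, 5′ to 3′, with the match in capitals.
Mpo: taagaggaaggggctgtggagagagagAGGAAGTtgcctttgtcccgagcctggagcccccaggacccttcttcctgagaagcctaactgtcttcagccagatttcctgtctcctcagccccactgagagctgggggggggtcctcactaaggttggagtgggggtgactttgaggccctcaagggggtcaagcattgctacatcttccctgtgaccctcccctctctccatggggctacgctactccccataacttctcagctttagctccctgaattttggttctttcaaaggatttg
Elane: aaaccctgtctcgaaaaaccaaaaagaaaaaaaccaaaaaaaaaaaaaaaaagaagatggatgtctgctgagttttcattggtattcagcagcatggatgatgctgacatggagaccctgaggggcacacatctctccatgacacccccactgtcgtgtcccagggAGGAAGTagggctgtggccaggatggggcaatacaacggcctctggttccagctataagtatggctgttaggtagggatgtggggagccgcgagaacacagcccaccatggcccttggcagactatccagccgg
Ctsg: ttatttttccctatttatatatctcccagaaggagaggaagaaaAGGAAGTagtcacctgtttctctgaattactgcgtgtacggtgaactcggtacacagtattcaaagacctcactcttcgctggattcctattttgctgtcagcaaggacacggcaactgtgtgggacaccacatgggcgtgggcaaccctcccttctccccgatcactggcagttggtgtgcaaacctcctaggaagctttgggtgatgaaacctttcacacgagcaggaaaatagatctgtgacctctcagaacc

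Genes for folding proteins in the ER had higher CD62L effects in CMPs than in GMPs, by small amounts. A higher effect in CMPs was called in 13 of 21 tested genes of the list, against 6.08% of all genes tested, and a lower one in none. In 15 of the 21 the effect was positive in CMPs and negative in GMPs, against 21.1% of all genes tested. In 11 the libraries did not overlap in either compartment, in those directions, against 2.24%. The median effect was 0.48 in CMPs and -0.37 in GMPs, and the median difference 0.93. Without CD62L-high GMP replicate 1, which was low in many of these genes, 14 genes were called, the median effect in GMPs was -0.19 and the median difference 0.76. Summed CPM of the list was 5215 to 5284 in CD62L-high CMPs, against 3256 to 3525 in CD62L-low CMPs. It was 4462 in CD62L-high GMP replicate 1 and 7339 and 7400 in replicates 2 and 3, against 9349 to 10526 in CD62L-neg GMPs. The 3 abundant gene models took 23.6% to 24.9% of counts in CD62L-high CMPs, against 28.8% to 31.7% in CD62L-low CMPs. They took 27.8% to 41.1% in CD62L-high GMPs, against 25.3% to 26.9% in CD62L-neg GMPs. In each compartment the group with the higher ER sum thus had the lower share. Whether this share bears on the ER differences was not tested.

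Calr, an ER calcium-binding chaperone that also folds myeloperoxidase and that both lists hold, had 1446, 1519 and 1489 CPM in CD62L-high CMPs, against 775, 783 and 774 CPM in CD62L-low CMPs. In GMPs Calr had 786, 2098 and 2097 CPM in CD62L-high GMPs, against 3627, 3336 and 3664 CPM in CD62L-neg GMPs. CD62L-high GMP replicate 1 was far below the other 2 libraries, which themselves lay below all CD62L-neg GMPs. The effects were 0.93 ± 0.24 in CMPs, under 2-fold, and -1.09 ± 0.24 in GMPs, and the difference 2.03 ± 0.34 (adjusted p = 0.000684). Without that library the effect in GMPs was -0.74 and the difference 1.67. Hspa5, the ER chaperone BiP, had 624, 571 and 617 CPM in CD62L-high CMPs, against 513, 545 and 450.3 CPM in CD62L-low CMPs. In GMPs Hspa5 had 479.7, 756 and 787 CPM in CD62L-high GMPs, against 1352, 1222 and 1434 CPM in CD62L-neg GMPs. Its effect in CMPs was 0.26 ± 0.16 and uncalled, its effect in GMPs -0.99 ± 0.16 and just under 2-fold (over it without CD62L-neg GMP replicate 2 or CD62L-high GMP replicate 2 or 3), and its difference 1.25 ± 0.22 (adjusted p = 0.00132), or 1.04 without that library. Hsp90b1, the ER form of HSP90, had effects of 0.81 ± 0.22 and -0.53 ± 0.21, neither over 2-fold, and a difference of 1.34 ± 0.30 (adjusted p = 0.00824).

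The ER stress response element, CCAAT and CCACG separated by 9 bases of any kind on either strand, through which the unfolded protein response is known to act on such genes, is rare in promoters. It stood in 15 of the 9578 promoters (0.157%), 7 of them of the 21 listed ER genes with a promoter (33.3%). All 7 (Calr, Hsp90b1, Creld2, Hspa5, Pdia6, Dnajc3 and Canx) had a called higher effect in CMPs, with differences between 0.76 and 2.03. None of the 8 other genes with the element was called. These include Syvn1 and Alg12, and the list does not hold every ER gene. Of the 12 tested listed genes with a promoter but without the element 4 were called. The other 2 tested listed genes have no promoter in the table, and both were called. A part of the element in these differences was not tested, and the list was chosen with earlier results of these data known. Creld2, Pdia6, Dnajc3 and Canx had differences of 1.33 ± 0.30, 1.20 ± 0.22, 0.88 ± 0.20 and 0.76 ± 0.21 (adjusted p = 0.0087, 0.00152, 0.00927 and 0.0285), and Canx lost its call without any of 7 libraries, with adjusted p between 0.0528 and 0.0916. Pdia6, Dnajc3, Canx, Hspa5 and Prtn3 were named after their values were seen. The promoters of Hspa5 (chr2:34771840-34772139 on the plus strand), Calr (chr8:84846882-84847181 on the minus strand), Hsp90b1 (chr10:86705395-86705694 on the minus strand) and Pdia6 (chr12:17266339-17266638 on the plus strand) follow, 5′ to 3′, with each match to the element in capitals. Hsp90b1 holds 2 matches.
Hspa5: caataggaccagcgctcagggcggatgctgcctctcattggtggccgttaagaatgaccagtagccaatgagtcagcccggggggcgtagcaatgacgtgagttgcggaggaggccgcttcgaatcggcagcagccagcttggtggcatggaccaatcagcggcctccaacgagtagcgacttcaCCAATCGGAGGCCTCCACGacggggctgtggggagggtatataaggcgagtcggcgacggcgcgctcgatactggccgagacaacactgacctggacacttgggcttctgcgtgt
Calr: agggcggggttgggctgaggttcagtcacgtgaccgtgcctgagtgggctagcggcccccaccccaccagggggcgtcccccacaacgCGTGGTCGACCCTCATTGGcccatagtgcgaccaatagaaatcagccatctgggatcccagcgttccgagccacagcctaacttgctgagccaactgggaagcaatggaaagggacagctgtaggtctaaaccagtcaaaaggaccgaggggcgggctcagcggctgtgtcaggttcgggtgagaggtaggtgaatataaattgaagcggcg
Hsp90b1: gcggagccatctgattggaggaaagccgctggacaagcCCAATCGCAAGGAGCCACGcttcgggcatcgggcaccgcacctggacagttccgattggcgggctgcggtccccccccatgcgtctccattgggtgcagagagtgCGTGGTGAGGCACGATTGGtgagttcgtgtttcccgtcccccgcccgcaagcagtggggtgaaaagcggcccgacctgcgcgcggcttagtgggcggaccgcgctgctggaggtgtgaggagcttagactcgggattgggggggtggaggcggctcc
Pdia6: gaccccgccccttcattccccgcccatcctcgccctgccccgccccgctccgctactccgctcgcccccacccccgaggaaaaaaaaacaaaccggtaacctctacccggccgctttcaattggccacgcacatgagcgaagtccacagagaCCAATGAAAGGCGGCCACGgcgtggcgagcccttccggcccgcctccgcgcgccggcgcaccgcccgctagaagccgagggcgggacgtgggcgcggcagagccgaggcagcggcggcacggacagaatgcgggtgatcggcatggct

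**Figure D4:**
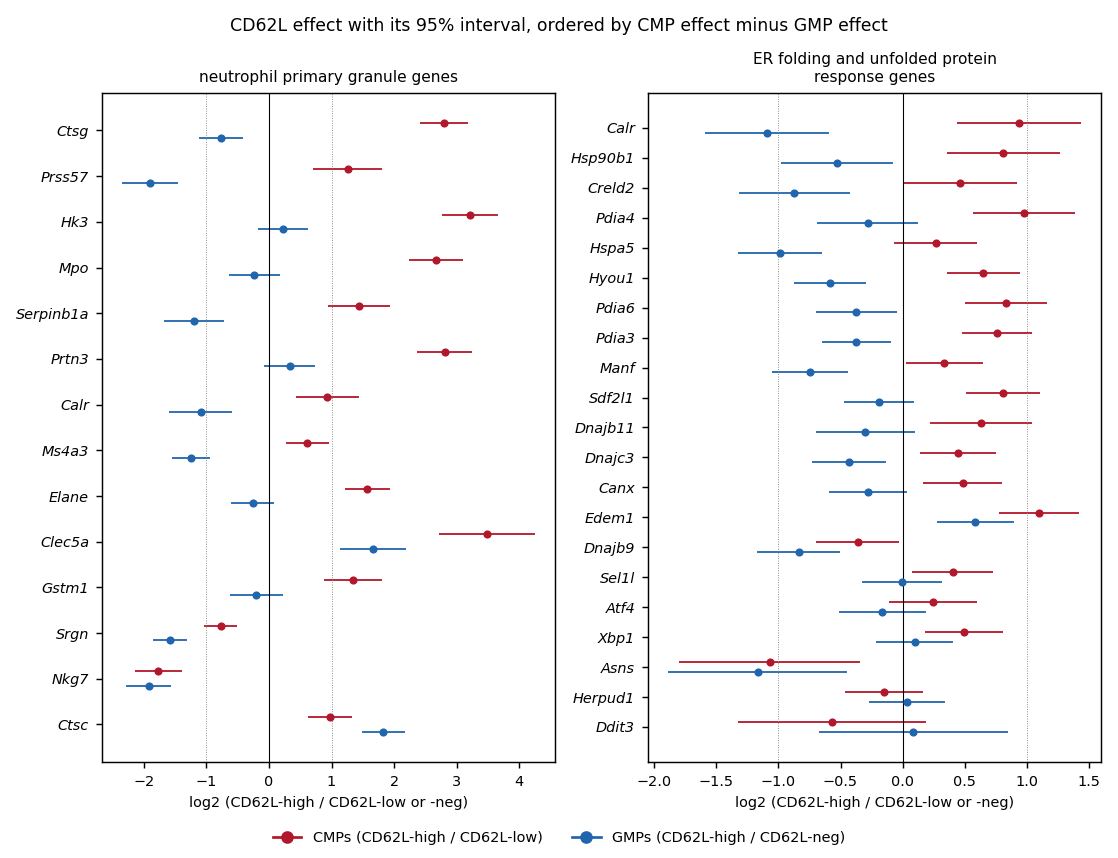
CD62L effect (log2, points) with its 95% interval (bars) in CMPs (red) and GMPs (blue) for the 14 tested neutrophil primary granule genes and the 21 tested ER folding genes, ordered by the difference; dotted lines mark 2-fold. The CMP point lies to the right of the GMP point in 13 of the 14 granule genes, all but Ctsc, and ER effects mostly stay inside 2-fold.

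Transcription factors of the myeloid branch split. Of 24 tested, 7 had a higher effect in CMPs (Cebpe, Gfi1, Id2, Cebpd, Runx2, Cebpa and Spi1), against 6.08% of all genes tested. A lower one was called in 3 (Nr4a1, Klf4 and Zeb2), against 3.04%. Cebpa, which starts the granulocyte programme, had 98.5, 103 and 113 CPM in CD62L-high CMPs, against 50.3, 39.8 and 35.5 CPM in CD62L-low CMPs. In GMPs Cebpa had 196, 165 and 165 CPM in CD62L-high GMPs, against 167, 198 and 155 CPM in CD62L-neg GMPs. It rose in CMPs by 1.32 ± 0.15, with a GMP interval of -0.30 to 0.32, and its difference was 1.31 ± 0.21 (adjusted p = 0.000562). Spi1, which encodes PU.1, rose in CMPs by 1.78 ± 0.22 and had an effect in GMPs of 0.53 ± 0.21, which passed the adjusted p without CD62L-low CMP replicate 1 (0.0135). Cebpd rose in CMPs by 3.17 ± 0.27 and had a GMP effect of 0.86 ± 0.21. Runx2, named after its values were seen, had a difference of 1.94 ± 0.27. Its effect in GMPs, -0.48 ± 0.19, was -0.70 and passed the adjusted p without CD62L-high GMP replicate 1 (0.00535).

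Klf4, a monocyte factor, had 73.9, 88.7 and 63.8 CPM in CD62L-high CMPs, against 14.9, 22.6 and 16.1 CPM in CD62L-low CMPs. In GMPs Klf4 had 236, 185 and 162 CPM in CD62L-high GMPs, against 14.2, 11.1 and 6.57 CPM in CD62L-neg GMPs. It rose in both and further in GMPs, by 4.19 ± 0.25 against 2.08 ± 0.24 in CMPs, a difference of -2.11 ± 0.33 (adjusted p = 0.000407). Irf8, which directs monocyte and dendritic cell formation, rose by similar amounts, 5.63 ± 0.37 in CMPs and 5.31 ± 0.36 in GMPs, and no difference was called (adjusted p = 0.741), but without CD62L-low CMP replicate 1 it was 1.20 (adjusted p = 0.0106). Of 30 tested monocyte and macrophage genes, 23 rose in CMPs and 24 in GMPs, against 5.95% and 4.69% of all genes tested. The effect was higher in CMPs in 12 (7 without CD62L-low CMP replicate 3), against 6.08%, and lower in 2, against 3.04%. The largest difference of the list, 4.58, was that of Vcam1, which fell in GMPs only and which the paper counts as neutrophil-related. Lyz2, lysozyme of monocytes and granulocytes, rose by 0.95 ± 0.20 in CMPs, under 2-fold, and by 2.94 ± 0.20 in GMPs, a difference of -1.99 ± 0.27 (adjusted p = 0.000115). Ly6c2, a surface antigen of monocytes, went the other way in size, with 4.75 ± 0.23 in CMPs and 2.17 ± 0.18 in GMPs. Csf3r, the G-CSF receptor, rose in CMPs by 2.36 ± 0.30 with an effect in GMPs of -0.31 ± 0.28, and Satb1, a chromatin organiser, by 2.40 ± 0.24 with an effect in GMPs of -0.43 ± 0.23. Itga2b, the platelet integrin chain CD41, fell in both, with effects of -5.40 ± 0.25 in CMPs and -8.90 ± 0.37 in GMPs, a difference of 3.5 ± 0.51 (adjusted p = 0.000197). Without CD62L-high GMP replicate 1 its effect in GMPs was -10.43 and the difference 5.02. With all 21 libraries scaled together, Itga2b averaged 0.23 CPM in CD62L-high GMPs, against 111 CPM in CD62L-neg GMPs. The size of its effect in GMPs thus rests on few reads.

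**Figure D5:**
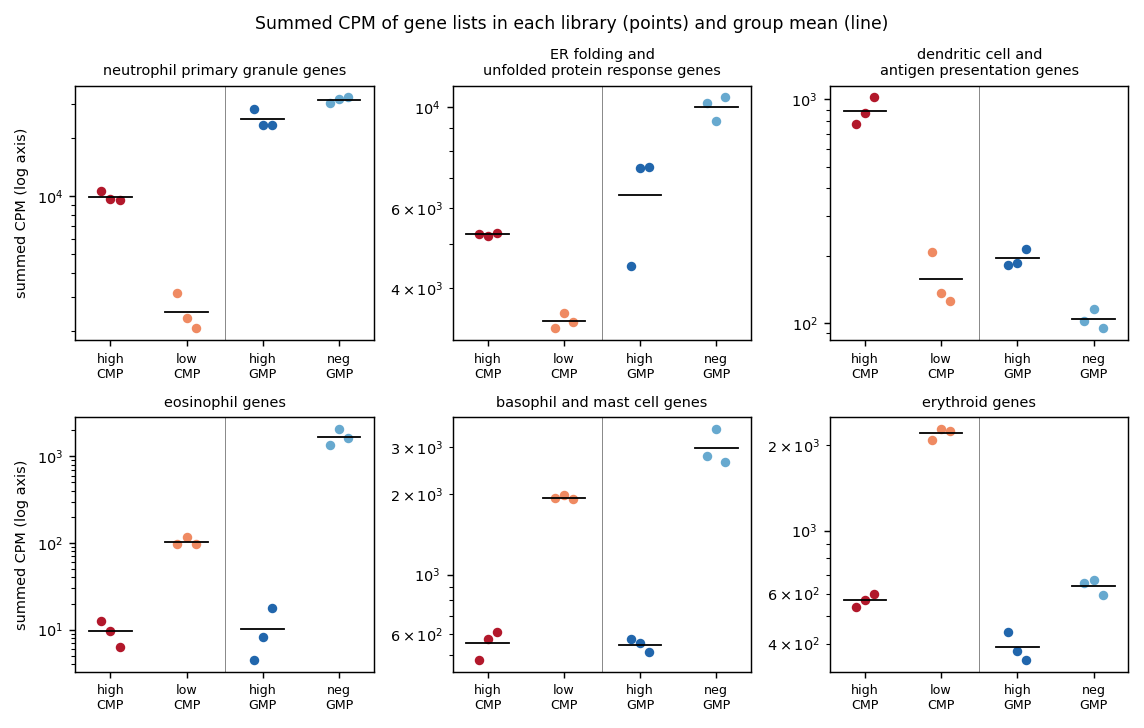
Summed CPM (log axis) of 6 gene lists in each of the 12 libraries (points) with the group mean (line). Granule and ER genes are higher in CD62L-high than in CD62L-low CMPs and lower in CD62L-high than in CD62L-neg GMPs, while eosinophil genes are at 1357 to 2069 CPM in CD62L-neg GMPs and under 120 CPM in every other library.

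Reads of some named genes can come from a neighbour. In GENCODE M21, exons of many of them, such as Gfi1, Il17rb, Prss57, Mpo, Prtn3, Cebpa, Cd34 and Zeb2, overlap those of a gene on the other strand, and exons of Plxnc1, Hsp90b1, Cd74, Hoxa9, Satb1 and Zeb2 overlap a gene model on the same strand. Whether reads were counted by strand is not given in the sources used here, so the shares could not be separated.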

How the data were processed

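Bone marrow progenitors were sorted and sequenced as bulk RNA. The authors deposited 1 table of raw read counts per gene, for 47643 Ensembl gene identifiers and 21 libraries. Per the submitters' processing notes, bcl2fastq, Trim Galore, HISAT2 and HTSeq were used with the mm10 build; versions are not given in the sources used here. The study's methods name a SMART-Seq v4 kit and the labels a stranded SMARTer kit. Of the identifiers, 47224 were given a symbol.

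The 12 libraries of 4 groups were fitted together with edgeR 4.0.16 (R 4.3.3, limma 3.58.1), using TMM scaling, edgeR's filter on low counts and the quasi-likelihood test, with 1 mean per group and no covariate. The CD62L effect in each compartment and the difference of the 2 effects were contrasts of that fit, adjusted over 14168 genes. The script was tested on simulated data. Floors for groups at 0 counts were 3 counts over the group. Depth ran from 7.06 M to 15.1 M counts; intervals cover model error between these libraries at 95% confidence.

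Genes named were those with the largest differences, 10 per direction with opposite effects and 6 per compartment and direction with 1 effect, among called genes whose libraries did not overlap in the called compartment, with at least 10 CPM in the highest group mean, over 3 counts in each group and a gene symbol that is not a model name. Genes of the sort gates, genes the study names and up to 4 called members per direction of each gene list could be named too. Genes named after their values were seen are marked in the text. The result of 1 gene is not reported here. Members and lists were chosen with earlier results of these data known. Alternatives were DESeq2 1.42.0 (its size factors, its Wald test), no filter, all 21 libraries, a replicate block, a 2-fold minimum, 3 abundant gene models left out, and each library left out.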

Additional observations from a re-analysis of the deposited data

Results flagged for a closer look

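For each gene below, the CD62L effect in CMPs and the CD62L effect in GMPs differed by the test of the difference itself (edgeR, adjusted p under 0.05); each value is the effect in CMPs minus the effect in GMPs on the log2 scale. Among genes higher in CD62L-high CMPs and lower in CD62L-high GMPs, the difference was 15.64 for Epx, 8.89 for Mcpt8, 6.96 for Il17rb, 5.75 for Ablim1, 4.23 for Gfi1, 4.06 for Fmnl2, 3.70 for Tespa1, 3.63 for Cd244a, 3.53 for Otogl, 3.41 for Tspan2, 3.29 for Tnfrsf26 and 3.25 for Ccl4. It was further 3.15 for Prss57. For genes with both effects turned round, lower in CMPs and higher in GMPs, it was -4.61 for Plxnc1, -3.45 for Zfp385a, -3.28 for Dusp3, -3.08 for Stx11 and -2.81 for Tnfaip2. Genes with an effect called in CMPs only, higher in CD62L-high cells, had differences of 4.52 for Kcng1, 4.28 for Clec12a, 4.24 for H2-Eb1, 4.14 for Trem1, 4.14 for Rab7b, 3.61 for Kcnip3, 3.53 for Id2, 2.99 for Hk3, 2.90 for Mpo, 2.82 for Satb1, 2.67 for Csf3r and 2.48 for Prtn3. Smaller ones were 2.05 for Cd34, 1.94 for Runx2, 1.83 for Elane, 1.32 for Fcgr2b, 1.31 for Cebpa and 1.25 for Spi1. Those lower in CD62L-high cells in CMPs only had -4.37 for Ptpn14, -4.32 for P2ry1, -3.85 for Slc14a1, -3.58 for Phlda1, -3.58 for Smim5, -3.41 for Ptgs1 and -1.11 for Nfe2. With an effect called in GMPs only, higher in CD62L-high cells, the values were -5.67 for Lpl, -4.88 for Pros1, -4.77 for Prdx4, -4.48 for Plxdc1, -3.88 for Selp, -3.12 for Plcb1, -2.30 for Nr4a1, -1.69 for Atf3 and -1.23 for Zeb2. With an effect called in GMPs only, lower in CD62L-high cells, they were 12.62 for Ear6, 10.89 for Prg2, 9.77 for Prg3, 6.27 for Phldb2, 5.55 for Prom1, 5.48 for Cebpe, 5.25 for Sept1, 4.97 for Pglyrp1, 4.58 for Vcam1, 1.88 for Hoxa9, 1.69 for Rgcc and 1.05 for Sox4. Genes that passed the adjusted p in both compartments in the same direction, with unequal size, had 12.93 for Cpa3, 8.41 for Prss34, 4.48 for H2-Aa, 3.99 for Cd74, 3.78 for Angpt1, 3.5 for Itga2b, 2.58 for Ly6c2, 2.31 for Cebpd, -2.11 for Klf4, -1.99 for Lyz2, 1.87 for Gata2 and -0.85 for Ctsc. The remaining genes, with at least 1 effect under 2-fold, had 3.56 for Ctsg, -3.33 for Itgb3, 2.03 for Calr, 1.34 for Hsp90b1, 1.33 for Creld2, 1.25 for Hspa5, 1.20 for Pdia6, 1.10 for Fcgr3, 0.88 for Dnajc3 and 0.76 for Canx. The differences of Epx, Prg3 and Ear6 rest on 22, 9 and 4 counts in CD62L-high CMPs, and that of Cpa3 on 0 counts in CD62L-high GMPs, and are not sizes. Those of Itga2b and Prss34 rest on few reads in CD62L-high GMPs.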

How the results depend on the processing

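The share of differences with a higher effect in CMPs stayed between 60.9% and 68.7% in every setting tried, against 66.6% as reported. With DESeq2's Wald test 666 genes had a lower effect in CMPs (431 with edgeR), and 154 fell in CMPs only (96 with edgeR). Leaving out 1 library at a time gave 622 to 1052 genes with a higher and 312 to 514 with a lower effect in CMPs, 19 to 35 and 5 to 17 with opposite effects, 126 to 206 and 68 to 119 in CMPs only (higher, then lower), and 60 to 108 and 136 to 180 in GMPs only. Within CMPs it gave 731 to 906 higher and 636 to 880 lower genes, and within GMPs 584 to 710 and 770 to 916. Without CD62L-high GMP replicate 1 the difference was called in 1566 genes, 1208 of them among the 1292, and 30 of the 41 opposite genes stayed. CD62L-low CMP replicate 1 had 3144 summed CPM of primary granule genes, against 2354 and 2068 in replicates 2 and 3. Its sum of myeloid transcription factors was lower than theirs, 4058 against 4906 and 4314. Without this library 206 genes rose in CMPs only, in place of 176. The fit of all 21 libraries called 1088, no filter 1700, DESeq2's size factors 1277, leaving out the 3 gene models 1286, and a 2-fold minimum 972. Libraries thinned to the smallest total, a setting chosen after seeing the data, called 1237, and Ear6 then lost its difference (adjusted p = 0.9998). No named gene's difference changed sign in any of these settings, and with DESeq2's Wald test all 88 kept their side of the threshold. Why the counts moved was not tested.

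Replicate numbers are shared between the groups. The 18 correlations of same-numbered libraries' deviations from their group means ran from -0.142 to 0.0838, none over 0.1, so the numbers were not taken to pair the libraries. With the replicate number as a block, 1192 differences were called, 1150 of them shared with the fit without it, and 34 of the 41 opposite genes stayed.

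Precision was limited by 3 libraries a group and by the shallower CD62L-low CMPs, and effects of genes near 0 counts, such as Epx, Prg3 and Ear6 in CMPs, have no usable size. The gates differed between the compartments, and the origin of the replicates is not stated.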
